A study of Mus musculus with 12 samples.

Results

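The membrane-bound adenylate cyclases, Adcy1 to Adcy9, were followed through 12 RNA-seq libraries of mouse cortical neurons in culture. They were taken by gene name from a table of 51912 genes, in which each of the 9 names had 1 row. The values are TPM, transcript abundances scaled for gene length and for the size of the library, so that levels can be compared between genes. Transcripts of 7 of the 9 reached a mean of at least 1 TPM over all libraries and were tested, and Adcy4 and Adcy7 stayed under that level.

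Adenylate cyclases make cyclic AMP (cAMP) from ATP and so turn the signals of G protein-coupled receptors into a signal inside the cell. All 9 enzymes are activated by the alpha subunit of the stimulatory G protein Gs, and they differ in what else controls them. Adcy1, Adcy3 and Adcy8 are stimulated by calcium with calmodulin, Adcy2, Adcy4 and Adcy7 by the beta-gamma subunits of G proteins, Adcy5 and Adcy6 are inhibited by Gi and by calcium, and Adcy9 is largely insensitive to the plant compound forskolin. In the forebrain Adcy1 and Adcy8 are known for synaptic plasticity and memory, Adcy5 for dopamine signalling in the striatum and Adcy3 for the primary cilium of neurons.

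The neurons came from the cortex of C57BL/6J embryos at day 17.5 of gestation, with no transgene or deletion named. Erinacine S, a terpenoid from the mycelium of the lion's mane mushroom, was given at 1 µg/mL a few hours after plating, and its solvent DMSO served as control. Cells were collected after 16 h or 48 h, which gave 4 groups of 3 libraries, solvent and treated at each time. The labels speak of independent repeats but do not say whether these were separate litters or dishes, so p-values measure the spread between libraries, which may be in part technical.

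Markers of neurons were abundant in every library. All 9 pan-neuronal markers and all 9 markers of excitatory cortical neurons averaged at least 1 TPM, and their summed levels lay at 4127 to 6483 TPM and at 1509 to 2172 TPM over the 12 libraries. The cultures also held markers of other cells, with sums of 65.8 to 243 TPM for the oligodendrocyte lineage, 73.0 to 170 TPM for astrocytes and 1.30 to 39.3 TPM for microglia. Of the endothelial and mural markers, 1 of 10 averaged at least 1 TPM, and Kcnj8 was listed at 0 in 3 of the 4 groups. Erinacine S 48 h replicate 1 stood apart. Its log2 values correlated across genes at 0.980 and 0.981 with the other libraries of its group, which correlated with each other at 0.995. In that library the markers of radial glia summed to 247 TPM (772 and 800 TPM in replicates 2 and 3) and those of inhibitory neurons to 1879 TPM (859 and 856 TPM). Single genes weighed heavily in these sums. Fabp7 of the radial glia list was at 72.6 TPM (465 and 494 TPM). Sst of the inhibitory list was at 1019 TPM (264 and 241 TPM), while Dlx2 of the same list was at 79.4 TPM (80.4 and 86.3 TPM). The member calls that rest on erinacine S 48 h replicate 1, and most of the list counts it moves, are given with and without it. Counts over time in DMSO move too, because the groups share an estimate of the spread. The shares of all genes called over time are given below for the fit of all 12 libraries. List counts over time without erinacine S 48 h replicate 1 therefore have no share of all genes beside them.

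Promoter sequences are shown for 4 members that rose together over time, Adcy1, Adcy2, Adcy5 and Adcy9, beside Adcy4, which was listed at 0 in most libraries. They were chosen after their sequences were seen, because the first 4 share a short motif that the window of Adcy4 lacks. The windows are from RefSeq on GRCm38.p6, run 5′ to 3′ on the strand of the gene, and reach from 250 bases before to 50 bases after the annotated start. They lie at chr11:7063183-7063482 (plus strand) for Adcy1, chr13:68999492-68999791 (minus strand) for Adcy2, chr16:35154614-35154913 (plus strand) for Adcy5, chr16:4420449-4420748 (minus strand) for Adcy9 and chr14:55784023-55784322 (minus strand) for Adcy4. Capitals mark the letters GGGCGG, the core of the GC box bound by Sp1 factors, on either strand.
Adcy1: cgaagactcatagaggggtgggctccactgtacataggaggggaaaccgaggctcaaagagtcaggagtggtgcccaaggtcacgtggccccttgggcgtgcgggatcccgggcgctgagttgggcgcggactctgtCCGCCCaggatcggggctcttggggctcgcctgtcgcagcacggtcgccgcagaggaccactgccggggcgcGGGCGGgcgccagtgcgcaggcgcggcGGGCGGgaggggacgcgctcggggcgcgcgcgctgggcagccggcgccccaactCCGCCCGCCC
Adcy2: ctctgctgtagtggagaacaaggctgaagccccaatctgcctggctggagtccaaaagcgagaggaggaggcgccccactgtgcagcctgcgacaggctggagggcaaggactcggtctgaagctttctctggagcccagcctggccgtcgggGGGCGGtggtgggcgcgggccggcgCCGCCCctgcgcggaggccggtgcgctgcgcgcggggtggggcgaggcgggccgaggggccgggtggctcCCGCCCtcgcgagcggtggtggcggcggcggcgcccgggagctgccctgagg
Adcy5: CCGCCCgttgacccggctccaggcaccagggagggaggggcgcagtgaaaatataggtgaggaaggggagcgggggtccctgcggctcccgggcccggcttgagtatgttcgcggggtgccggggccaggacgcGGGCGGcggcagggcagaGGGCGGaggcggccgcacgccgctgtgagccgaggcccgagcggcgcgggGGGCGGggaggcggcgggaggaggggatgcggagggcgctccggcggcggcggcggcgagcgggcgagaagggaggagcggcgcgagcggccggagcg
Adcy9: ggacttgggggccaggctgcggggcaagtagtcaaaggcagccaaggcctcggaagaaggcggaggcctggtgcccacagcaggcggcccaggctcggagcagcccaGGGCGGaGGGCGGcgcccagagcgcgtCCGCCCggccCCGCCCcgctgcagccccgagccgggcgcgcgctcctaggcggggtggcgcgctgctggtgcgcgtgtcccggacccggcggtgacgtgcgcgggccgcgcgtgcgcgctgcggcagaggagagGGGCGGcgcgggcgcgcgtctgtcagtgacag
Adcy4: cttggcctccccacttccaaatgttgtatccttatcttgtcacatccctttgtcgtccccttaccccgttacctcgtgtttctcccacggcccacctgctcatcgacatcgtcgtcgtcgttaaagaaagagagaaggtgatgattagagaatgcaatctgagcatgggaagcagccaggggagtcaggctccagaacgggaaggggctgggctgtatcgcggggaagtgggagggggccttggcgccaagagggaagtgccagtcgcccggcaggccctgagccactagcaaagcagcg

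Matches to GGGCGG were counted on both strands, overlapping ones included. There were 5 in the window of Adcy1, of which the last 2 overlap, 3 in Adcy2, 4 in Adcy5, 5 in Adcy9 and 0 in Adcy4. Adcy3, which also rose, had 1 match in the first of its 2 windows and 0 in the second, and Adcy7 had 1 match in its 3 windows. Over all 32851 promoter windows of that table, 35.7% held at least 1 match and 10.7% held at least 3. The windows of the 4 members were rich in G and C, at 74.0% for Adcy1, 75.0% for Adcy2, 79.0% for Adcy5 and 78.3% for Adcy9. The windows of Adcy3 stood at 68.7% and 56.0%, that of Adcy4 at 58.0% and those of Adcy7 at 54.7% to 57.0%, beside a median of 52.7% over all windows. The cAMP response element TGACGTCA, the sequence that CREB binds, was in no window of the 7 members with an entry and in 1.79% of all windows. Its shorter form TGACG was found once in the Adcy9 window and once among the windows of Adcy7, and in 20.8% of all windows. These are matches of letters and no test was made of them. Adcy6 and Adcy8 had no entry.

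Time in culture was the comparison in which the members changed. From 16 h to 48 h, 6 of the 7 tested members rose in DMSO (Adcy1, Adcy2, Adcy3, Adcy5, Adcy8 and Adcy9), and 6 of 7, the same genes, rose in erinacine S. None fell. Of all 15623 genes tested, 16.1% were called higher and 16.6% lower at 48 h in DMSO (32.7% in all), and 15.1% were called higher and 15.5% lower in erinacine S (30.6% in all). The median log2 change of the 7 members was 0.69 in DMSO and 0.73 in erinacine S, beside -0.03 in both for all genes. Changes are on the log2(TPM + 1) scale, tested with limma with Benjamini-Hochberg adjustment over all genes, and a gene is called at an adjusted p under 0.05. A rise in bulk RNA can come from more cells of a type or from more RNA per cell, and these cannot be told apart here.

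**Figure D1:**
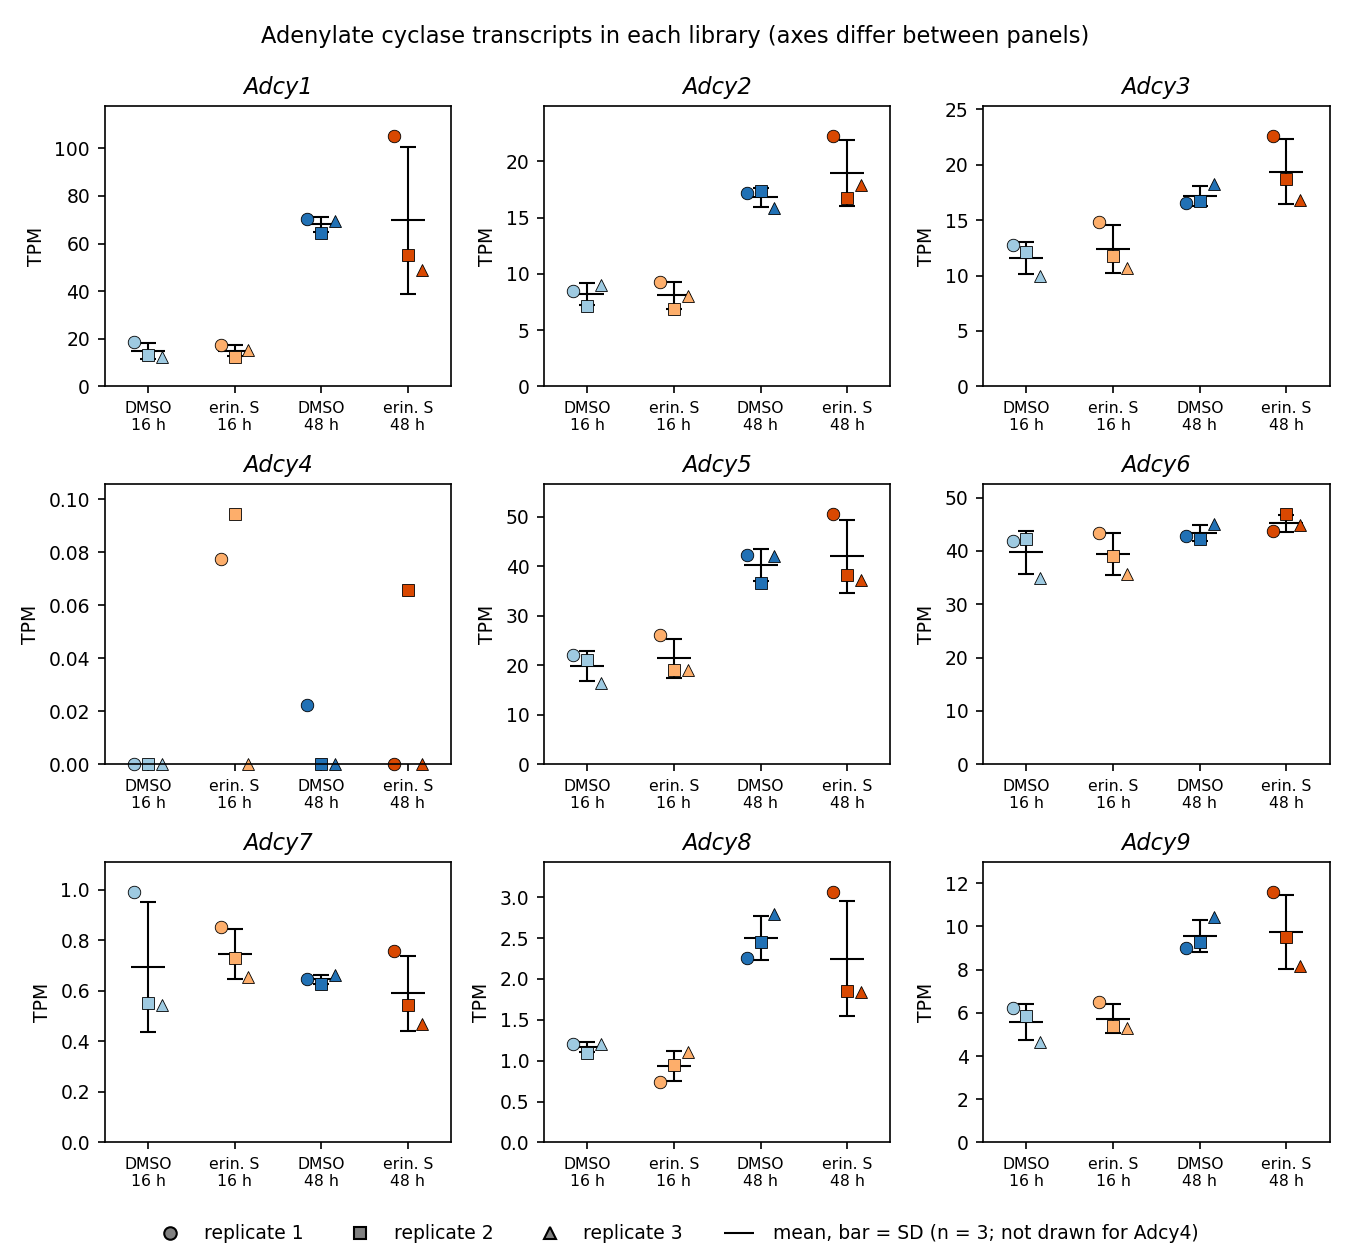
Level of each adenylate cyclase (y axis, TPM, linear and starting at 0, with a separate scale per panel) in the 3 libraries of each of the 4 groups (x axis). Points are libraries, long ticks the mean and bars the SD, left out for Adcy4. Adcy1 lay at 12.4 to 18.5 TPM in all libraries of 16 h and at 49.0 to 105 TPM in all of 48 h, while Adcy6 stayed between 35.0 and 46.9 TPM.

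Among the calcium-stimulated cyclases, Adcy1 (ENSMUSG00000020431, chr11:7063489-7178506, plus strand, GRCm38) changed most. This neuronal enzyme couples calcium entry at the synapse to cAMP. Its TPM in replicates 1, 2 and 3 were 18.5, 13.3 and 12.5 in DMSO 16 h and 17.2, 12.4 and 15.4 in erinacine S 16 h. At 48 h they were 70.3, 64.3 and 69.4 in DMSO and 105, 55.0 and 49.0 in erinacine S. The lowest library of 48 h was far above the highest of 16 h, and the groups of a given time overlapped. In DMSO the mean went from 14.8 ± 3.28 to 68.0 ± 3.24 TPM (SD, n = 3), a ratio of 4.60 and a log2 change of 2.15 ± 0.24 (SE, limma adjusted p = 9.3e-05), which ranks as number 10 among all tested genes by size of rise. In erinacine S the log2 change was 2.07 ± 0.24 (limma adjusted p = 0.000132), number 4 by size, and 1.74 ± 0.16 without erinacine S 48 h replicate 1. The gene spans 115 kb and has 20 exons in its longest coding transcript in GENCODE M21, and no other annotated gene overlaps it.

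Adcy3 (ENSMUSG00000020654, chr12:4133103-4213525, plus strand) rose less. It is the cyclase of the primary cilium and of olfactory neurons. Its TPM in replicates 1 to 3 were 12.7, 12.1 and 9.95 in DMSO 16 h, 14.8, 11.7 and 10.7 in erinacine S 16 h, 16.6, 16.8 and 18.2 in DMSO 48 h, and 22.6, 18.8 and 16.8 in erinacine S 48 h. All libraries of 48 h were above all of 16 h. The log2 change over time was 0.54 ± 0.14 in DMSO (limma adjusted p = 0.0114) and 0.61 ± 0.14 in erinacine S (limma adjusted p = 0.00630). In DMSO it lost its call, at an adjusted p of 0.0586, when all genes of the table were tested. The gene Cenpo lies on the opposite strand over exons of Adcy3. Whether the counting used strand is not given in the sources used here, so reads of both genes may not have been told apart. Cenpo itself lay at 4.65 to 7.11 TPM, with a change of -0.10 ± 0.14 over time in DMSO that did not pass the test. The same limit holds for other members with a gene of the opposite strand on their exons, Adcy2 (Gm35161, not analysed here), Adcy6 (Gm29331, at most 0.0305 TPM) and Adcy8 (Gm21798, listed at 0 in every library).

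Adcy8 (ENSMUSG00000022376, chr15:64699042-64922296, minus strand), the other cyclase known for calcium signals and memory, was low. It measured 1.20, 1.10 and 1.20 TPM in DMSO 16 h, 0.741, 0.950 and 1.11 in erinacine S 16 h, 2.26, 2.45 and 2.79 in DMSO 48 h and 3.06, 1.85 and 1.84 in erinacine S 48 h. The libraries of 48 h were all above those of 16 h. It rose by a log2 change of 0.69 ± 0.16 in DMSO (limma adjusted p = 0.00619) and 0.73 ± 0.16 in erinacine S (limma adjusted p = 0.00501). The added 1 TPM holds down the fold of so low a gene, and with 0.1 in its place the changes were 1.04 and 1.16. The ratios of mean TPM were 2.15 in DMSO and 2.41 in erinacine S. Adcy8 averaged 0.933 TPM in erinacine S 16 h and passed the filter on low values through its levels in the other groups.

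Of the cyclases stimulated by beta-gamma subunits, Adcy2 alone was at a level that could be tested. Adcy2 (ENSMUSG00000021536, chr13:68620043-68999541, minus strand), an enzyme that responds to Gs and Gi signals arriving together, measured 8.46, 7.15 and 9.01 TPM in DMSO 16 h and 9.31, 6.88 and 8.07 in erinacine S 16 h. It measured 17.2, 17.4 and 15.8 TPM in DMSO 48 h and 22.2, 16.7 and 17.9 in erinacine S 48 h. The times did not overlap and the treatments did. Its log2 change over time was 0.96 ± 0.13 in DMSO (limma adjusted p = 0.000327) and 1.13 ± 0.13 in erinacine S (limma adjusted p = 0.000134).

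Adcy7 (ENSMUSG00000031659, chr8:88272403-88329962, plus strand), known mainly from blood and immune cells, stayed under 1 TPM in every library. It measured 0.990, 0.549 and 0.542 TPM in DMSO 16 h, 0.852, 0.731 and 0.652 in erinacine S 16 h, 0.647, 0.627 and 0.661 in DMSO 48 h and 0.755, 0.543 and 0.469 in erinacine S 48 h. The 4 groups overlapped. When all genes of the table were tested, its log2 change over time was -0.03 ± 0.11 in DMSO and -0.14 ± 0.11 in erinacine S, and neither passed. Adcy4 (ENSMUSG00000022220, chr14:55769058-55784042, minus strand), known from blood vessels, was listed at 0 in 8 of 12 libraries. The other libraries held 0.0775 and 0.0945 TPM (erinacine S 16 h replicates 1 and 2), 0.0225 (DMSO 48 h replicate 1) and 0.0658 (erinacine S 48 h replicate 2). The soluble cyclase Adcy10, which has another structure and is no member of the family, lay between 0 and 0.0775 TPM.

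Of the cyclases inhibited by Gi and calcium, Adcy5 passed the test over time and Adcy6 did not. Adcy5 (ENSMUSG00000022840, chr16:35154877-35305737, plus strand), the main cyclase of striatal neurons, measured 22.1, 21.1 and 16.4 TPM in DMSO 16 h, 26.0, 19.1 and 19.1 in erinacine S 16 h, 42.3, 36.6 and 42.1 in DMSO 48 h and 50.6, 38.2 and 37.3 in erinacine S 48 h. Every library of 48 h was above every library of 16 h. Its log2 change over time was 0.99 ± 0.15 in DMSO (limma adjusted p = 0.000661) and 0.94 ± 0.15 in erinacine S (limma adjusted p = 0.00102). Of the 12 striatal markers fixed as a list, all averaged at least 1 TPM. In DMSO 3 rose and 1 fell over time (4 and 3 without erinacine S 48 h replicate 1). At 16 h their sum was 195 to 242 TPM with DMSO and 209 to 225 TPM with erinacine S. At 48 h it was 262 to 302 TPM with DMSO, and 464, 237 and 233 TPM in replicates 1 to 3 with erinacine S. The part of such cells in the level of Adcy5 was not tested.

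Adcy6 (ENSMUSG00000022994, chr15:98589994-98607633, minus strand), found in many tissues, measured 41.8, 42.3 and 35.0 TPM in DMSO 16 h, 43.4, 39.1 and 35.7 in erinacine S 16 h, 42.7, 42.3 and 45.1 in DMSO 48 h and 43.8, 46.9 and 44.9 in erinacine S 48 h. Within each treatment the times touched without overlapping, with 42.3 TPM at both edges in DMSO. Across treatments they overlapped, as erinacine S 16 h reached 43.4 TPM. All 7 tested members lay higher at 48 h without overlap in both treatments, as 24.1% of all genes did in DMSO and 21.2% in erinacine S. Its log2 change was 0.13 ± 0.09 in DMSO (95% interval -0.06 to 0.32, limma adjusted p = 0.283) and 0.20 ± 0.09 in erinacine S (95% interval 0.00 to 0.39, limma adjusted p = 0.111). The second value passed when libraries were weighted (0.26, adjusted p = 0.000517) and without erinacine S 16 h replicate 1 (0.27, adjusted p = 0.0410), where 7 of 7 members were called. The difference between Adcy5 and Adcy6 was not tested.

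Adcy9 (ENSMUSG00000005580, chr16:4287529-4420498, minus strand), the cyclase most distant from the others in sequence, measured 6.24, 5.84 and 4.63 TPM in DMSO 16 h and 6.50, 5.37 and 5.30 in erinacine S 16 h. It measured 8.99, 9.27 and 10.4 TPM in DMSO 48 h and 11.6, 9.50 and 8.19 in erinacine S 48 h. The times were again apart. Its log2 change was 0.69 ± 0.14 in DMSO (limma adjusted p = 0.00327) and 0.67 ± 0.14 in erinacine S (limma adjusted p = 0.00427). The time comparison in erinacine S called the same 6 members without erinacine S 48 h replicate 1, with log2 changes of 0.50 (Adcy3) to 1.74 (Adcy1), and the median of the 7 tested members moved from 0.73 to 0.56.

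**Figure D2:**
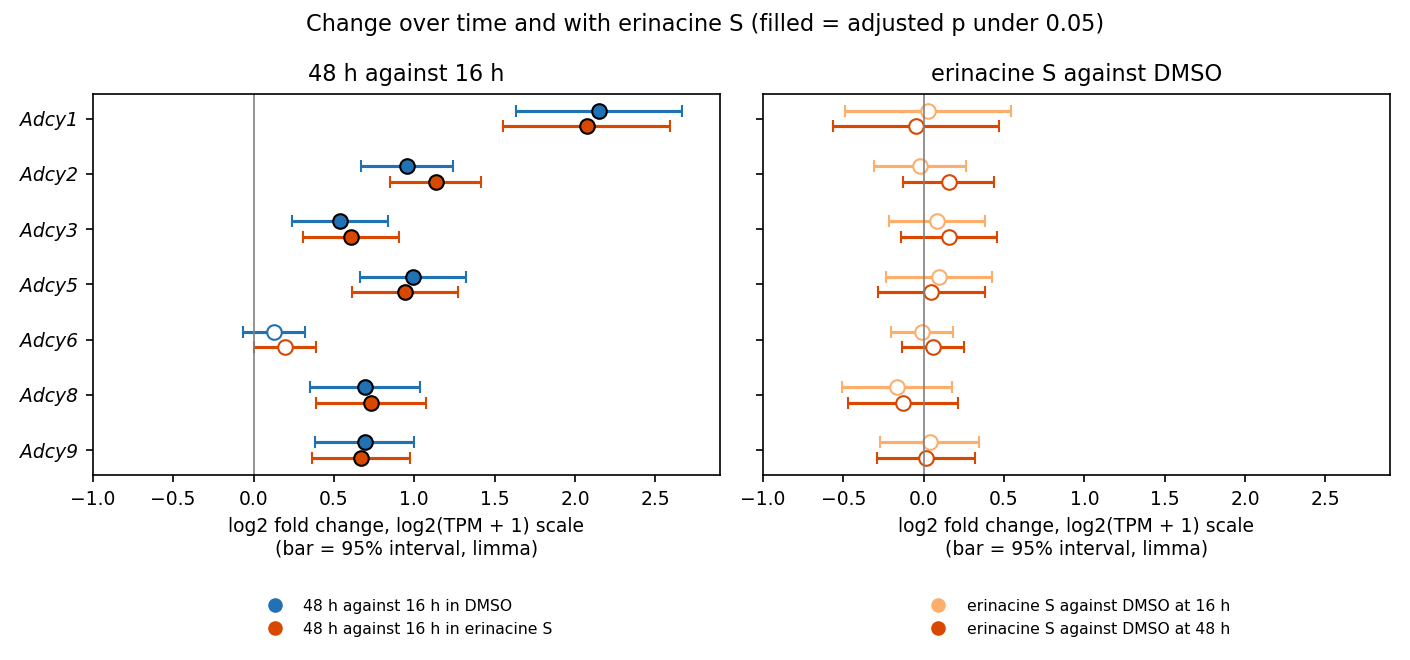
Log2 fold change of the 7 tested cyclases (x axis, log2(TPM + 1) scale) for 48 h against 16 h (left) and erinacine S against DMSO (right), with 95% intervals from limma as bars and filled points for an adjusted p under 0.05. All 7 points on the left lie above 0 and 6 are filled in each treatment. All points on the right are open and their intervals contain 0.

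The order of the cyclases by level changed between the times. At 16 h Adcy6 was highest in both treatments, at 39.7 ± 4.08 TPM in DMSO, followed by Adcy5 (19.9 ± 3.03), Adcy1 (14.8 ± 3.28), Adcy3 (11.6 ± 1.46), Adcy2 (8.21 ± 0.957), Adcy9 (5.57 ± 0.841), Adcy8 (1.16 ± 0.0597), Adcy7 (0.693 ± 0.257) and Adcy4 (SD, n = 3 each). Of these neighbours, Adcy5 overlapped with Adcy1 and Adcy1 with Adcy3. In erinacine S 16 h the order was the same, and Adcy1 overlapped with Adcy3 and Adcy8 with Adcy7. At 48 h Adcy1 was highest, at 68.0 ± 3.24 TPM in DMSO and 69.7 ± 30.8 in erinacine S. It was followed in DMSO by Adcy6 (43.4 ± 1.52), Adcy5 (40.3 ± 3.23), Adcy3 (17.2 ± 0.901), Adcy2 (16.8 ± 0.837), Adcy9 (9.56 ± 0.760), Adcy8 (2.50 ± 0.269) and Adcy7 (0.645 ± 0.0169). In both treatments of 48 h Adcy6 overlapped with Adcy5 and Adcy3 with Adcy2.

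Summed over the 9 genes, cyclase transcripts at 16 h came to 101.6 ± 11.5 TPM with DMSO and 103.8 ± 13.2 TPM in treated cells (mean ± SD, n = 3). At 48 h the sums were 198.4 ± 7.79 TPM with DMSO and 207.9 ± 45.2 TPM in treated cells. The treated 48 h libraries summed to 259.7, 187.5 and 176.4 TPM for replicates 1, 2 and 3, so replicate 1 lay above the 3 DMSO libraries of 48 h and the other two lay below them. Adcy1 made up 14.5% ± 1.88 of this sum in DMSO 16 h and 34.3% ± 0.611 in DMSO 48 h. Adcy6 went from 39.1% ± 1.77 to 21.9% ± 0.545. Adcy5 held a nearly level share, at 19.5% ± 1.02 and 20.3% ± 0.897. The sums describe transcripts, and the protein was not measured here.

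**Figure D3:**
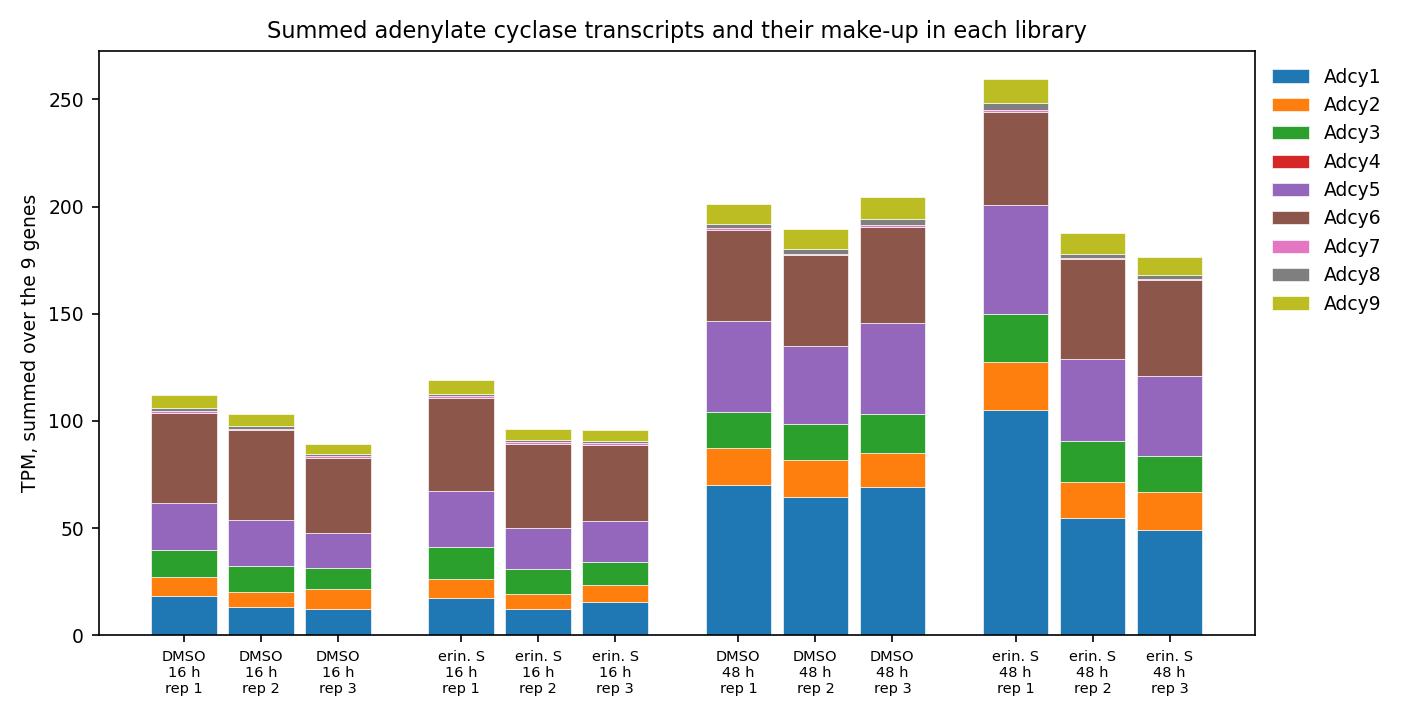
Summed level of the 9 cyclases in each library (bars, y axis in TPM from 0), divided by gene, with the 4 groups of 3 libraries along the x axis. The bars of 16 h reach 89.3 to 119 TPM and those of 48 h 176 to 260 TPM, and the part of Adcy1 at the foot of the bars is larger at 48 h.

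Erinacine S against DMSO gave no called member. At 16 h 0 of 7 members were called by limma and 0 of 15623 genes (0%), with 201 genes (1.29%) and no member at an unadjusted p under 0.05. At 48 h 0 of 7 members were called, and 21 of all genes (0.134%), 3 of them higher (0.0192%) and 18 lower (0.115%), with 1400 genes (8.96%) and again no member at an unadjusted p under 0.05. All 7 members overlapped between the treatments at both times, where 4.19% of all genes at 16 h and 19.3% at 48 h did not overlap. The median log2 change of the members was 0.03 at 16 h and 0.05 at 48 h, beside 0.01 for all genes at both times.

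The intervals show what size of change these libraries leave possible. At 16 h the 95% interval of the erinacine S effect was -0.49 to 0.55 for Adcy1, -0.31 to 0.26 for Adcy2, -0.22 to 0.38 for Adcy3, -0.23 to 0.43 for Adcy5, -0.20 to 0.18 for Adcy6, -0.51 to 0.18 for Adcy8 and -0.27 to 0.34 for Adcy9. At 48 h it was -0.57 to 0.47 for Adcy1, -0.13 to 0.44 for Adcy2, -0.14 to 0.45 for Adcy3, -0.28 to 0.38 for Adcy5, -0.13 to 0.25 for Adcy6, -0.47 to 0.22 for Adcy8 and -0.29 to 0.32 for Adcy9. Adcy6 had the narrowest interval at both times and Adcy1 the widest. A test of whether the effect of erinacine S differed between 48 h and 16 h called 0 of 7 members and 0 of 15623 genes (0%), with 432 genes (2.77%) at an unadjusted p under 0.05. Its estimates for the members ran from -0.08 ± 0.34 (Adcy1) to 0.18 ± 0.18 (Adcy2).

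Replicate 1 of erinacine S 48 h carried much of the spread. It was the highest of its group for 7 of the 9 genes, with Adcy1 at 105 TPM beside 55.0 and 49.0, and its summed cyclase level was 260 TPM beside 188 and 176. In the same library the summed markers of inhibitory neurons (with Sst alone at 1019 TPM beside 264 and 241) and of striatal neurons were high. Those of astrocytes (73.0 TPM beside 170 and 169), dividing cells (143 beside 272 and 280), the oligodendrocyte lineage (74.8 beside 183 and 196) and microglia (1.30 beside 7.28 and 8.70) were low. The part of all these cell types in the cyclase levels was not tested. Without that library 114 of all genes were called at 48 h and still 0 members. The estimate for Adcy1 then moved from -0.05 ± 0.24 to -0.38 ± 0.16 (limma adjusted p = 0.508), and replicates 2 and 3 both lay below all 3 DMSO libraries. Adcy8 moved from -0.13 ± 0.16 to -0.30 ± 0.13 (limma adjusted p = 0.558), again with both libraries below the DMSO group. These 2 of 7 members stand beside 19.9% of all genes that lay lower without overlap in this comparison of 2 libraries with 3 (36.9% in either direction). The other 5 lay between -0.10 (Adcy9) and 0.08 (Adcy6), and the median of the members moved from 0.05 to -0.09.

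**Figure D4:**
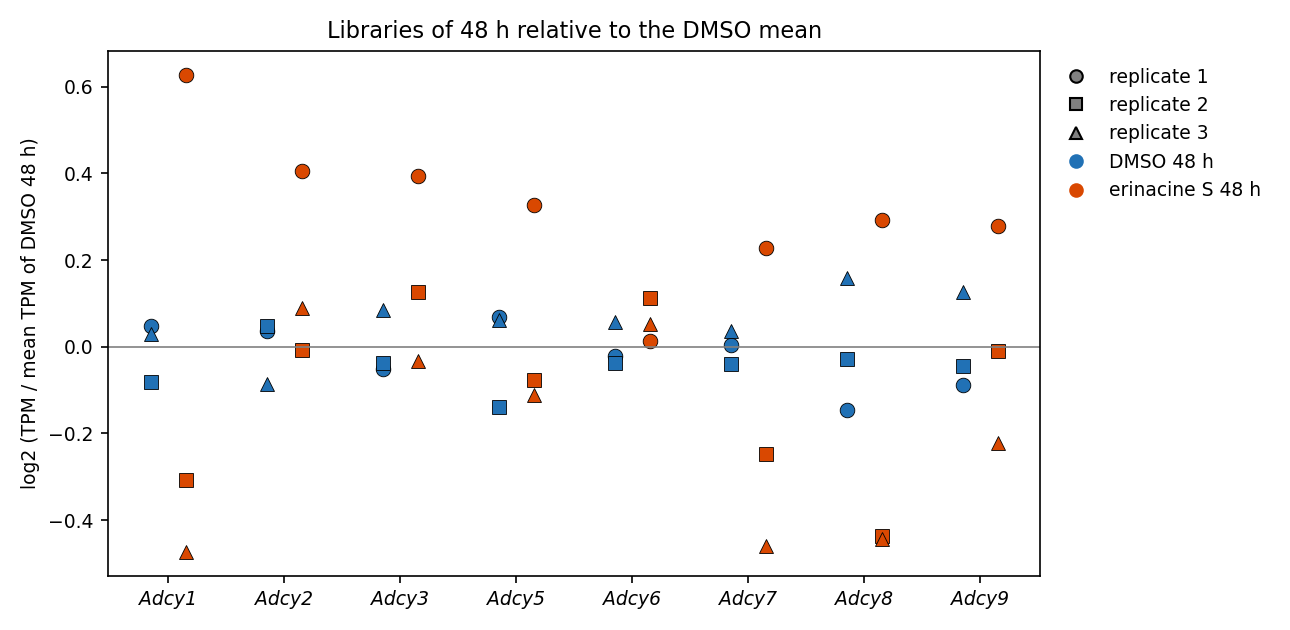
Level of 8 cyclases in the libraries of 48 h relative to the mean of DMSO 48 h (y axis, log2 of the TPM ratio, 0 is the DMSO mean). Circles, squares and triangles are replicates 1, 2 and 3, blue is DMSO and orange erinacine S. The orange circle lies above the other orange points for all genes shown except Adcy6.

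The members followed each other across libraries to different degrees. Over the 12 libraries, log2(TPM + 1) of Adcy5 and Adcy9 correlated at r = 0.985 and that of Adcy1 and Adcy5 at 0.977, while Adcy6 and Adcy8 correlated at 0.492. The libraries share their time groups, so these values mostly describe the change from 16 h to 48 h. The genes most like each member by Pearson's r over the 12 libraries were Cemip (0.997) and Ntrk2 (0.996), the receptor of the growth factor BDNF, for Adcy1, Pnmal1 (0.991) and Trank1 (0.988) for Adcy2, and Abca3 (0.990) and Agpat3 (0.990) for Adcy3. For Adcy5 they were Cnih2 (0.995), an auxiliary subunit of AMPA receptors, and Mgat3 (0.994), for Adcy8 Galntl6 (0.985) and Cyb561 (0.985), and for Adcy9 Lmtk2 (0.991) and Garem1 (0.989). Between 709 (Adcy8) and 1301 (Adcy1) named genes reached r of 0.9 with these members. Adcy6 had 51 such genes, led by Tmem259 (0.958) and Fnbp1 (0.954).

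Genes that act upstream of the cyclases were read from lists fixed for the pathway. Of the Gs list, which holds Gnal, Gnas and their chaperone Ric8b, 2 of 3 genes rose over time in DMSO and 0 fell. Ric8b was the one not called. Gnal, the Gs-like subunit of striatal and olfactory neurons, had 44.9, 40.6 and 42.3 TPM in DMSO 16 h and 98.3, 98.7 and 103 in DMSO 48 h, a log2 change of 1.21 ± 0.17. Gnas, the common Gs subunit, went from 860 ± 25.3 to 1143 ± 74.4 TPM (SD, n = 3), a log2 change of 0.41 ± 0.10. Of the inhibitory family 3 of 5 rose and 0 fell: Gnai1 by 0.82 ± 0.09, Gnaz by 0.67 ± 0.12 and Gnao1 by 0.33 ± 0.07. Every change in these sentences is a log2 difference from the same fit as that of the members.

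Receptors on the Gi side were called in both directions, and those on the Gs side too when erinacine S 48 h replicate 1 was left out. Of 13 tested Gs-coupled receptors (21 listed), 9 rose and 0 fell in DMSO (9 and 2 without that library). Adrb1, a receptor for noradrenaline, was at 4.28 ± 1.22 TPM at 16 h and 10.9 ± 0.820 at 48 h. Gpr3, a receptor that signals without a bound ligand, rose by a log2 change of 0.86 ± 0.17 in DMSO and had -0.00 ± 0.17 in erinacine S, and the difference between these, -0.87 ± 0.24, did not pass (limma adjusted p = 1). Of 24 tested genes on the list of Gi-coupled receptors (31 listed), 14 rose and 3 fell in DMSO (15 and 4 without erinacine S 48 h replicate 1). That list holds Ackr3, an atypical chemokine receptor that shares a ligand with Cxcr4 and works through arrestins rather than Gi, and without it 14 of 23 rose and 2 fell. The noradrenaline receptor Adra2a (1.59 ± 0.13), the GABA-B receptor subunit Gabbr2 (1.32 ± 0.13) and the glutamate receptor Grm2 (1.30 ± 0.12) were among those that rose, and the chemokine receptor Cxcr4 (-0.70 ± 0.08) and Ackr3 (-0.85 ± 0.10) among those that fell. In erinacine S against DMSO at 48 h, Cxcr4 (0.70 ± 0.08, limma adjusted p = 0.00215) and Ackr3 (0.59 ± 0.10, limma adjusted p = 0.0458) were the called genes of the receptor lists, both higher, of which Cxcr4 is the one that couples to Gi. That comparison shares its DMSO 48 h libraries with the one over time. The call of Ackr3 was lost on leaving out any library of 48 h other than erinacine S replicate 1, with limma adjusted p up to 0.242.

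Downstream, all 6 subunits of protein kinase A, the main target of cAMP, rose in both treatments. Without erinacine S 48 h replicate 1, 4 of 6 rose in erinacine S, and Prkacb and Prkar1a did not pass. In DMSO their log2 changes ran from 0.25 (Prkar1a) to 0.83 ± 0.10 (Prkar2b), whose level went from 104 ± 7.02 to 186 ± 3.37 TPM. Of the tested phosphodiesterases, which break cAMP down, 5 of 13 rose and 0 fell, led by Pde7b (1.27 ± 0.13) and Pde2a (0.77 ± 0.08). Pde10a, which is also among the striatal markers, rose by 0.67 ± 0.09. Without erinacine S 48 h replicate 1 in the fit, 7 of the phosphodiesterases rose in DMSO. Of 12 tested kinase inhibitors and anchors 4 rose and 0 fell (7 and 1 without that library), with Pkia at 0.58 ± 0.10. Of 7 other cAMP effectors 3 rose (4 without that library), among them the channel Hcn2 (1.60 ± 0.20) and the exchange factor Rapgef4 (0.95 ± 0.21). None of the genes of these 4 lists was called in erinacine S against DMSO at 48 h, and without erinacine S 48 h replicate 1 Pde4d and Rapgef4 were called lower. Pde4d is also on the list of CREB target genes and is counted there again.

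Over time in DMSO the median of the cyclases was above those of the pathway lists given here. Beside 0.69 for the cyclases, the median log2 change was 0.60 for Gs-coupled receptors, 0.55 for Gi-coupled receptors, 0.46 for CREB target genes, 0.45 for other effectors, 0.41 for the Gs family, 0.37 for phosphodiesterases, 0.34 for protein kinase A subunits, 0.33 for the Gi family, 0.28 for inhibitors and anchors and -0.12 for CREB factors. The Gs family is counted here with the chaperone Ric8b, and of its subunits Gnal rose by more than 0.69 and Gnas by less. The lists differ in size and in level, and the added 1 TPM holds down the changes of low genes. The cyclase median is the value of Adcy8, itself a low gene, and the order is given for this scale alone. The lists share libraries and some genes (Pde4b, Pde4d and Crem are each on more than 1 of them), and no test was made between them. In the same comparison 5 of 9 pan-neuronal markers rose and 1 fell, and 7 of 8 tested markers of the oligodendrocyte lineage rose, with a sum of 65.8 to 116 TPM in DMSO 16 h and 210 to 243 in DMSO 48 h. Of the excitatory cortical neuron markers 1 of 9 rose and 4 fell, with a sum of 1939 to 2172 TPM at 16 h and 1582 to 1633 at 48 h. Of 8 tested astrocyte markers 1 was called higher, though all 8 estimates were above 0, with a median of 0.61. Without erinacine S 48 h replicate 1 in the fit, 6 of the 8 were called higher. Their sum was 81.2 to 110 TPM at 16 h and 144 to 160 at 48 h. Of 10 radial glia markers 2 rose and 2 fell (4 and 3 without that library), with 4 estimates above 0 and a median of -0.09. Their sums were 469 to 575 TPM at 16 h and 724 to 773 TPM at 48 h. Fabp7 alone had a mean of 141 TPM in DMSO 16 h and 418 TPM in DMSO 48 h. The part of these cell types in the rise of the cyclases was not tested.

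Transcription factors and target genes at the end of the pathway moved in both directions. Of the list of 9 CREB factors and coactivators, 1 rose and 3 fell in DMSO over time. The 1 that rose was Creb3l2 (0.60 ± 0.19), a relative of CREB in the endoplasmic reticulum and not a classical cAMP-driven factor. Among those that fell were the coactivator Crtc2 (-0.55 ± 0.09) and the factor Atf1 (-0.40 ± 0.11). Of 21 genes that CREB is known to drive, 10 rose and 2 fell in DMSO over time, and 1 rose and 4 fell in erinacine S. Without erinacine S 48 h replicate 1 the counts were 13 and 2 in DMSO and 1 and 6 in erinacine S. The test of the difference between these changes over time, which is also that between the erinacine S effects of 48 h and 16 h, called 0 of 21. At 16 h 0 of 21 were called in erinacine S against DMSO, 4 estimates were above 0 and the median was -0.25. At 48 h 0 of the 21 were higher and 7 were lower in erinacine S than in DMSO, with a median log2 change of -0.57 while the median of the cyclases was 0.05. Without erinacine S 48 h replicate 1, a setting added for this list after the data were seen, 14 were lower and the medians were -0.89 and -0.09. Vgf, a secreted neuropeptide precursor, measured 53.8, 47.8 and 68.6 TPM in DMSO 48 h and 34.0, 30.3 and 25.2 in erinacine S 48 h (-0.90 ± 0.14, limma adjusted p = 0.0413). Dusp1, a phosphatase of MAP kinases, measured 49.5, 50.9 and 51.2 TPM in DMSO 48 h and 34.8, 32.9 and 33.8 in erinacine S 48 h (-0.57 ± 0.08, limma adjusted p = 0.0286). The other 5 were Fos, Junb, Nr4a1, Npas4 and Crh. The fall of several of these was known when the list was drawn up, so the count is no independent evidence. The call of Dusp1 was lost on leaving out any library of 48 h other than erinacine S replicate 1 (limma adjusted p up to 0.165). That of Vgf was lost on leaving out DMSO replicate 1 or 3 or erinacine S replicate 2 or 3 (up to 0.175). At 48 h the 9 microglia markers summed to 16.4 to 23.2 TPM with DMSO and to 1.30 to 8.70 TPM with erinacine S. Of 5 tested markers 1 was called lower (3 without erinacine S 48 h replicate 1). Their part in these changes was not tested.

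**Figure D5:**
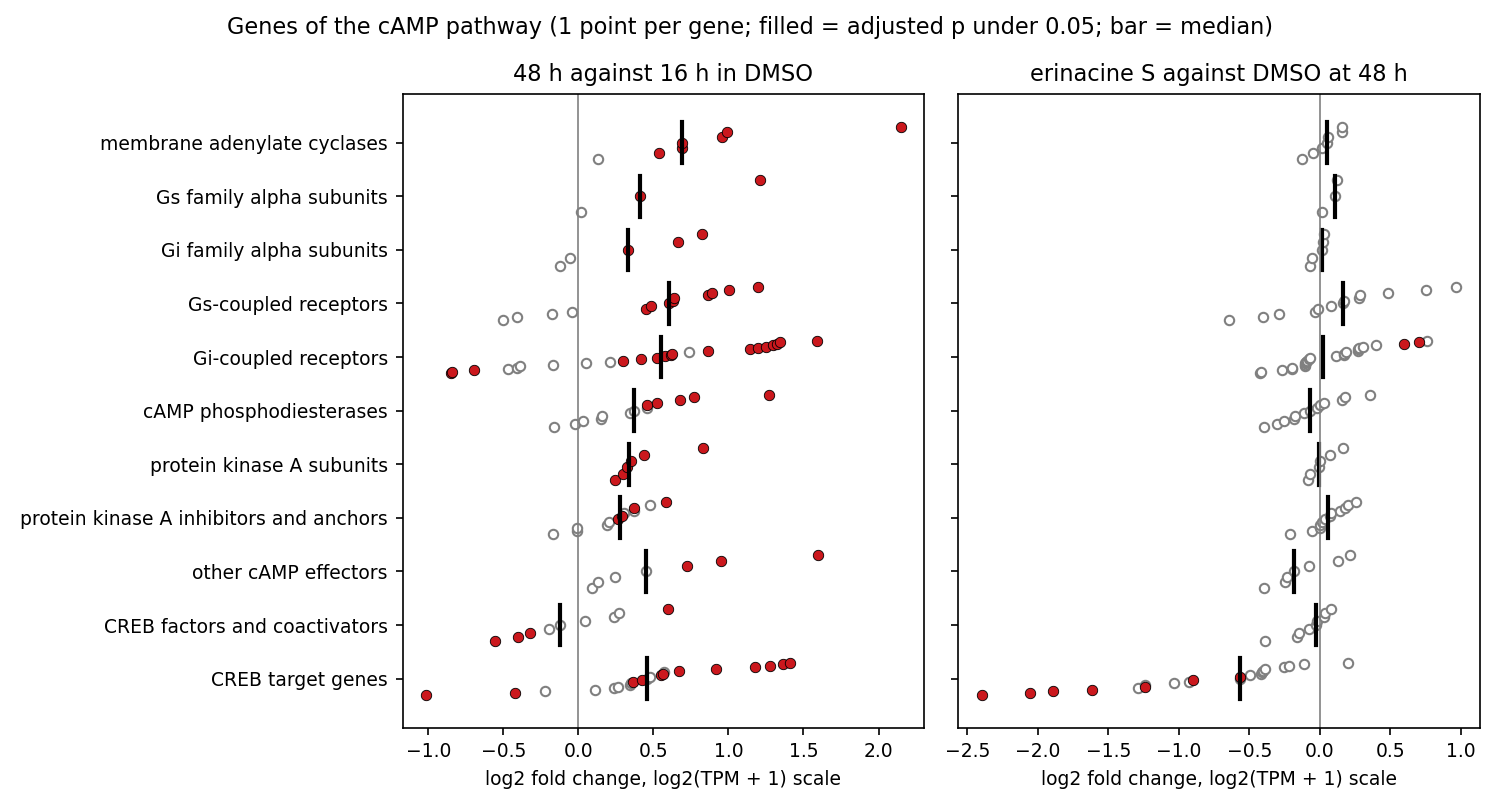
Log2 fold change of each tested gene of the cAMP pathway lists shown (x axis, log2(TPM + 1) scale, 1 point per gene, filled at an adjusted p under 0.05), by list (y axis), over time in DMSO (left) and for erinacine S against DMSO at 48 h (right). Vertical bars are the list medians. The list of Gs family alpha subunits also holds their chaperone Ric8b. The cyclases have a median of 0.69 on the left and 0.05 on the right, and the CREB target genes have a median of -0.57 on the right.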

How the data were processed

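The authors deposited a table of TPM per gene for 12 libraries, with a value of 0.0001 in place of 0, which was set back to 0. Per the submitters' processing notes, the tools were StringTie 2.1.3, HISAT2, SAMtools, Trimmomatic 0.36, FastQC and bcl2fastq 2.20, on the build GRCm38.p5. For the order of steps, the annotation release and the strand setting, nothing is given in the sources used here. TPM keep no depth, so counting error is unknown.

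The test was limma 3.58.1 (R 4.3.3) on log2(TPM + 1), with a mean per group over all 12 libraries and eBayes with a trend, two-sided p-values adjusted by Benjamini-Hochberg across 15623 genes that averaged at least 1 TPM and a threshold of 0.05. The named genes are all members, of each pathway list the called erinacine S genes and the 3 smallest p over time in DMSO that passed, and the 2 genes most like each member, with part of them given. Others were chosen after their values were seen, among them Prkar1a, Prkacb, Pde4d, Ric8b, Cenpo and the markers named singly (Kcnj8, Fabp7, Sst and Dlx2). The members and lists were chosen with earlier results of these data known. Groups and replicate numbers come from the sample titles. At 16 h same-numbered libraries deviated together (r = 0.480, 0.185 and 0.510 for replicates 1, 2 and 3), and at 48 h they did not (-0.0219, 0.107 and -0.192). The alternatives were other pseudocounts, filters, scalings, library weights, a replicate block, fewer libraries in the fit and leaving out each library in turn. For a comparison of groups, only libraries of the groups compared were left out in turn. For the lists, erinacine S 48 h replicate 1 was also left out in every comparison. Some genes of the pathway lists are not reported here. Promoter windows are RefSeq's, for 7 of the 9 members.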

Additional observations from a re-analysis of the deposited data

How the results depend on the processing

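The number of members called stayed within 1.5 times its value under each of the alternatives run, 17 for each of 4 comparisons and 22 for the difference between the times: 0 in each erinacine S comparison, 5 or 6 over time in DMSO and 5 to 7 in erinacine S. The counts of 5 came from a filter at a mean TPM of 5, where Adcy8 was not tested, and in DMSO also from no filter. A pseudocount of 5 lowered the change of Adcy8 over time to 0.28 in DMSO and 0.29 in erinacine S. The replicate block changed no call of a member, and the cause of the changes below was not tested.

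No erinacine S effect on a member passed under any alternative run. Its sign held under all of them at 48 h for Adcy2, Adcy3, Adcy6 and Adcy8, at 16 h for Adcy8, and in the difference between the times for Adcy2 and Adcy6, and the others turned under at least 1. With library weights the sign turned at 16 h for Adcy1 (-0.27), Adcy3 (-0.053), Adcy5 (-0.10) and Adcy9 (-0.10), at 48 h for Adcy5 (-0.067) and Adcy9 (-0.032), and in the difference between the times for Adcy5 (0.033), Adcy8 (-0.14) and Adcy9 (0.066). Leaving out each library in turn, the effect at 16 h ranged from -0.074 to 0.19 for Adcy1, -0.12 to 0.076 for Adcy2, -0.043 to 0.18 for Adcy3, -0.046 to 0.18 for Adcy5, -0.095 to 0.058 for Adcy6 and -0.071 to 0.11 for Adcy9. At 48 h it ranged from -0.38 to 0.16 for Adcy1, -0.088 to 0.13 for Adcy5 and -0.10 to 0.12 for Adcy9. The difference between the times ranged from -0.41 to 0.13 for Adcy1, -0.037 to 0.20 for Adcy3, -0.18 to 0.095 for Adcy5, -0.13 to 0.13 for Adcy8 and -0.14 to 0.088 for Adcy9.

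Over all genes, 6 were called at 16 h with no filter on low values. At 48 h 1599 were called with library weights, 13 with the replicate block and 12 with only the libraries compared. Leaving out each library of 48 h in turn gave 9 to 114, the highest without erinacine S 48 h replicate 1. The difference between the times had 1 call with a pseudocount of 0.1, 1 with no filter, 14 with library weights and 1 with the replicate block within each time. Over time in DMSO leaving out each DMSO library in turn gave 3401 to 4585. Over time in erinacine S leaving out each erinacine S library gave 3110 to 4886, with 9338 under library weights. The fit without erinacine S 48 h replicate 1, used above for lists over time in DMSO, is not in the range for DMSO.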

Other observations

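In the groups of 16 h, replicate 1 was the highest library for 6 of the 8 cyclases detected in DMSO and for 7 of 9 in erinacine S, as it was for 7 of 9 in erinacine S 48 h, while in DMSO 48 h it was the highest for 3 of 9. Adcy7 and the microglia markers can be set side by side. In DMSO 16 h Adcy7 was at 0.990, 0.549 and 0.542 TPM and the 9 microglia markers summed to 39.3, 20.7 and 25.0 TPM in replicates 1, 2 and 3. In erinacine S 16 h Adcy7 was at 0.852, 0.731 and 0.652 TPM and the markers summed to 36.6, 24.9 and 24.5 TPM. In DMSO 48 h Adcy7 was at 0.647, 0.627 and 0.661 TPM and the markers summed to 23.2, 21.6 and 16.4 TPM. In erinacine S 48 h Adcy7 was at 0.755, 0.543 and 0.469 TPM where the markers summed to 1.30, 7.28 and 8.70 TPM. The library with the highest Adcy7 had the highest microglia sum of its group in both treatments of 16 h and the lowest in both treatments of 48 h.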
